A study of Mus musculus with 18 samples.

Results

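The 8 genes described here are Fcer1a, Ms4a2, Cpa3, Mcpt8, Prss34, Hdc, Cma1 and Il1rl1, which are known from mast cells and basophils. They were taken by name, and 7 of them had a probe set among the 19505 genes tested, each exactly 1 probe set. Il1rl1, which encodes the IL-33 receptor ST2, was not matched to a probe set and its signal is not analysed here. Signals were read on 18 arrays, 1 array per mouse. The material was RNA from a bone marrow preparation that the labels call mesenchymal cells, taken from femurs and tibias with magnetic beads against CD45, Ter119, CD11b, CD11c, CD3, Gr1 and B220. The labels give a check by flow cytometry for absence of CD45 and presence of CD29 and CD44. Of the mice, 5 BALB/c controls and 5 NeuT mice were 12 weeks old, and 4 BALB/c controls and 4 NeuT mice were 24 weeks old. The labels place NeuT mice at an early stage of mammary tumour formation at 12 weeks and at a late stage at 24 weeks, and give no other treatment. NeuT mice are known to carry an activated rat Erbb2 transgene driven by a mammary tumour virus promoter, so effects of the transgene, of the tumours and of any other difference between the lines cannot be told apart. The comparisons ask how the signals of these genes differ between NeuT and BALB/c mice of one age, and with age.

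Mast cells and basophils are granulated cells of the blood lineage that arise in the bone marrow and carry the high-affinity IgE receptor. Binding of antigen to receptor-bound IgE releases granules with histamine and proteases, and the cells also secrete cytokines such as IL-4. Basophils mature in the marrow and circulate, while mast cells leave as progenitors and mature in tissues, where the connective-tissue type makes chymases and tryptases. Both cell types carry CD45, an antigen against which the beads were directed.

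The promoters of the 5 genes that took part in the correlations between members described further on are shown first, because GATA1 and GATA2, the transcription factors of both lineages, are known to bind the letters AGATAA. Each line gives the 250 bases before the start of the gene, from RefSeq on build GRCm38.p6, on the strand of the gene, with AGATAA and its reverse complement TTATCT in capitals.
Fcer1a: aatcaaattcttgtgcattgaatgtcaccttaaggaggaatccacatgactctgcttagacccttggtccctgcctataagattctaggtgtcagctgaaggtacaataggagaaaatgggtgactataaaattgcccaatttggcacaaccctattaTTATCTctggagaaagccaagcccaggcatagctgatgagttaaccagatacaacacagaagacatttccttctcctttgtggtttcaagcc
Ms4a2: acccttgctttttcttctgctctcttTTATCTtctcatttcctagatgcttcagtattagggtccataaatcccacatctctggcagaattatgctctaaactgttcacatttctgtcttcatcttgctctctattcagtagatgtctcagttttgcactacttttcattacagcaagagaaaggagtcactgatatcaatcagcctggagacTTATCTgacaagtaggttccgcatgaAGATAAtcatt
Cpa3: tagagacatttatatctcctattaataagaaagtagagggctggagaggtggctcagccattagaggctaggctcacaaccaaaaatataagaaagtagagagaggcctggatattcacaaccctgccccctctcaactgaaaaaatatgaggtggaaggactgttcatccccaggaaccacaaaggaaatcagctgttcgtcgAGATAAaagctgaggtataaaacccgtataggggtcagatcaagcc
Mcpt8: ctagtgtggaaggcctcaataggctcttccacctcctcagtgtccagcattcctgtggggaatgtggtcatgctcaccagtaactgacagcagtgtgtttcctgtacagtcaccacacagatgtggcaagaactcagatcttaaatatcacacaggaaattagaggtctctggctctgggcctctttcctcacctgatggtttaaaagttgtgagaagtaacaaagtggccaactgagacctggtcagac
Prss34: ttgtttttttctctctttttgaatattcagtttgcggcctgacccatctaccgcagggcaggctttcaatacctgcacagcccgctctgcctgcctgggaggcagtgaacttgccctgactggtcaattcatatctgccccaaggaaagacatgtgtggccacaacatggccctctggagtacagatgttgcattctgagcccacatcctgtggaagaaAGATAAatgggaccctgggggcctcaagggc
These windows lie at chr1:173227230-173227479 for Fcer1a, chr19:11623720-11623969 for Ms4a2, chr3:20242182-20242431 for Cpa3 and chr14:56085198-56085447 for Mcpt8, all on the minus strand, and at chr17:25298144-25298393 on the plus strand for Prss34. Fcer1a has 1 match, which begins 92 bases before the start, and Ms4a2 has 3, at 224, 37 and 11 bases. Cpa3 and Prss34 have 1 each, at 46 and 31 bases, and the Mcpt8 window has none, as do those of Hdc and Cma1. Il1rl1 has 2 windows, with matches at 217 and 103 bases. Of the 9 windows of the listed genes 6 hold AGATAA. Over both strands AGATAA occurs in 9.99% of the 32851 promoter windows of this length. The related TGATAA, searched too, occurs in 7.94%, in none of the 5 windows shown and in 1 window of Il1rl1. Also searched on both strands were TATAAA, in 12.4% of windows, and TGTGGT, in 14.0%. Of the windows shown, those of Fcer1a and Cpa3 hold TATAAA, and those of Fcer1a, Cpa3 and Mcpt8 hold TGTGGT. The matches describe these letters and do not show binding.

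The arrays were alike in scale, with medians over all genes between 8.43 and 8.56. The table holds no detection calls, and the number of arrays limits the precision. As a yardstick, log2 signals of the negative controls were used, whose median was 7.35 and whose 95th percentile was 10.46. The lowest median correlations with the other arrays were 0.987 (NeuT 12-week replicate 4), 0.988 (replicate 3 of the 24-week BALB/c mice) and 0.991 (replicate 1 of the 24-week NeuT mice). On BALB/c 24-week replicate 1 the highest value was 13.92, against 14.49 to 14.58 on the other arrays. Of 14 stromal genes, checked because the labels name mesenchymal cells, Lepr and Col3a1 lay under the control median in every array and 12 did not. Cxcl12 (9.04 to 9.45), Vcam1 (9.53 to 10.31), Col1a1 (9.69 to 10.23) and Eng (9.64 to 10.48) lay above it in every array. Of the 14 stromal genes 0 lay above the 95th percentile of the controls in every array. Of 10 genes of granulocyte-monocyte progenitors, cells that carry CD45, 7 lay above the 95th percentile of the controls in every array, among them Mpo and Elane. Signals of different probe sets do not rank transcripts or cell types by amount.

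The members fell into 3 tiers against this yardstick. Mcpt8 and Prss34, which encode granule serine proteases of basophils, lay above the 95th percentile in all 18 arrays. Cpa3, the carboxypeptidase of mast cells and basophils, did so in 14 of 18 arrays, and Hdc, which encodes the histamine-forming enzyme histidine decarboxylase, in 12. Fcer1a lay above the control median in all 18 arrays but never above the 95th percentile, and Ms4a2 lay above the median in 16. Cma1, the chymase gene of connective-tissue mast cells, lay above it in 1 array. Of 20 further mast cell genes 9 lay under the control median in every array, among them the protease genes Mcpt1, Mcpt2, Mcpt4, Mcpt9, Cma2 and Tpsab1 and the receptor genes Mrgprb1 and Mrgprb2, named after their values were seen. In the same list 4 lay above the 95th percentile in every array, Kit, Ctsg, Srgn and Cd63, which other blood cells express as well. Of 16 further basophil genes 1, Cd200r4, lay under the control median in every array. Il3ra and Csf2rb, chains of the receptor for the basophil growth factor IL-3, and Cd69 lay above the 95th percentile in every array.

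**Figure D1:**
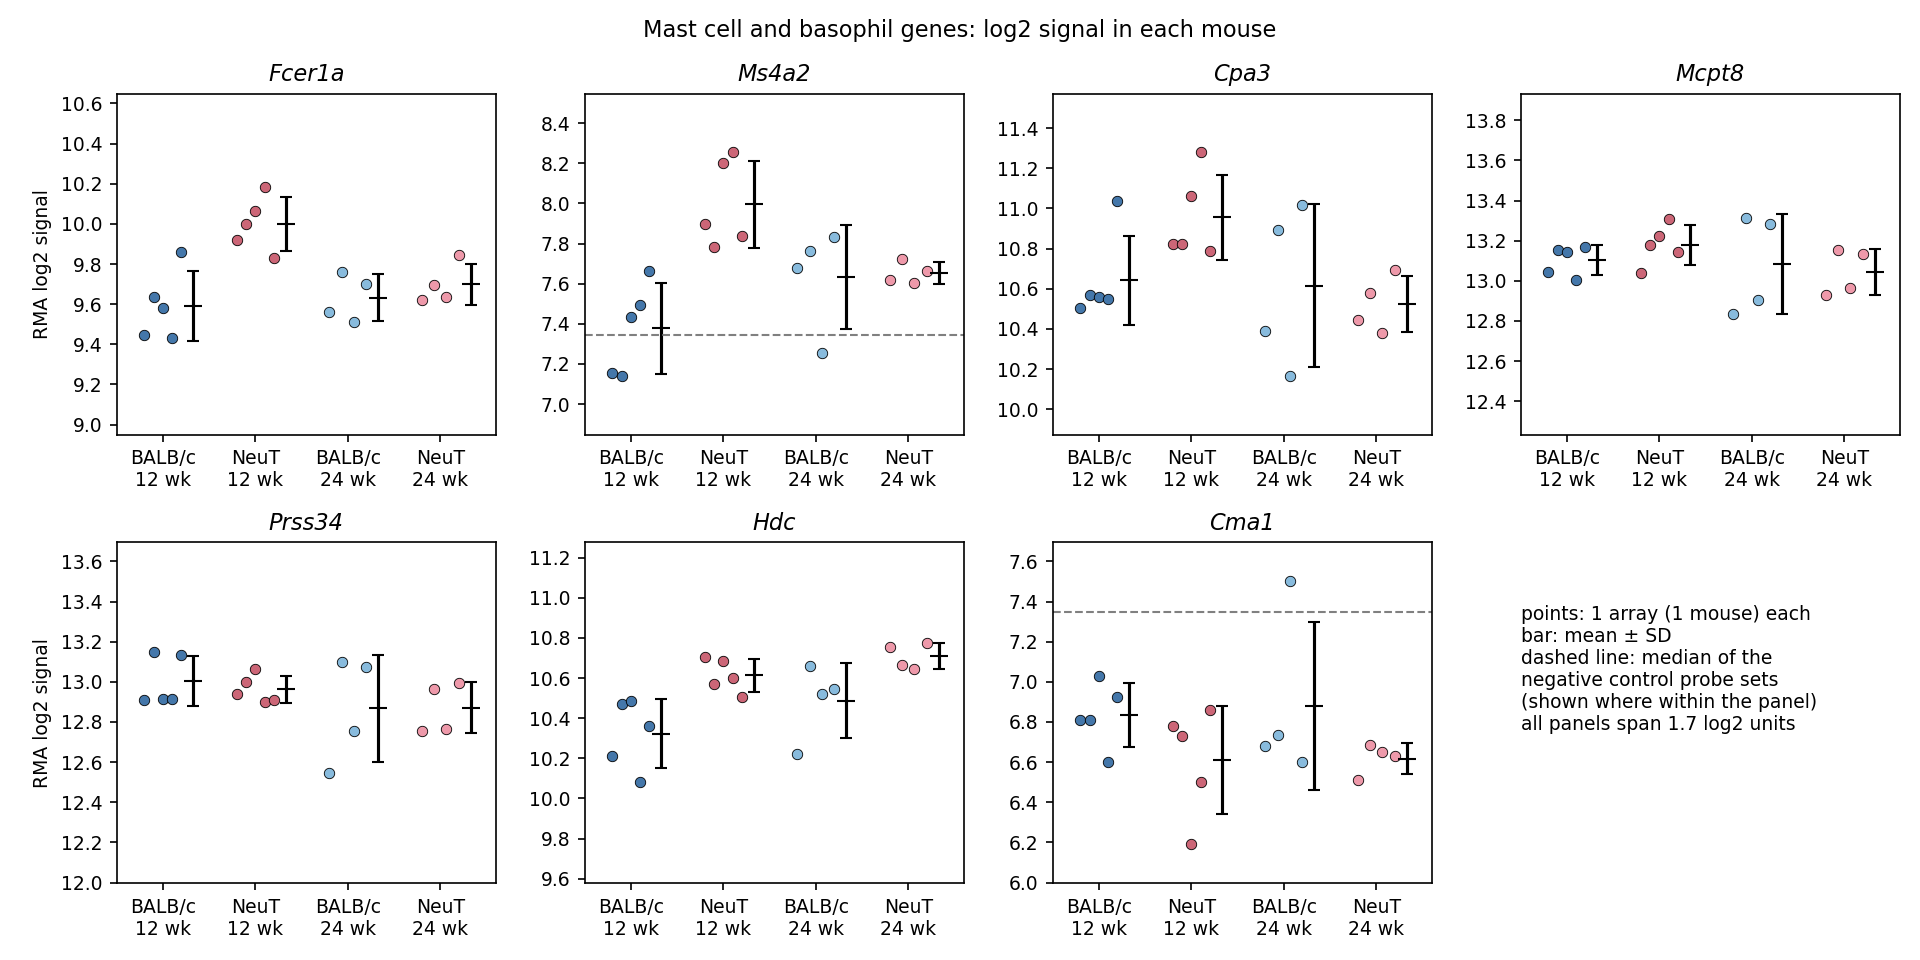
RMA log2 signals of the 7 measured genes (vertical axes) in the 4 groups of mice (horizontal axes), 1 point per mouse, with the mean ± SD as a bar. Ms4a2 is higher in all 5 NeuT mice than in all 5 BALB/c mice of 12 weeks, Mcpt8 and Prss34 overlap at both ages, and Cma1 lies under the dashed median of the negative controls in all arrays but BALB/c 24-week replicate 3.

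At 12 weeks Fcer1a and Ms4a2, the genes for the alpha and beta chains of the IgE receptor, were higher in NeuT mice. They were 2 of the 7 measured members, while 0 fell and 5 did not pass an adjusted p of 0.05 in limma. Over all genes 3.84% passed and 3.15% passed upwards. At an unadjusted p under 0.05, 4 of 7 members passed and 21% of all genes. The members had a median log2 difference of 0.29, and all genes had one of -0.025. At 24 weeks 0 of 7 passed, with 1 at an unadjusted p under 0.05, where 1.4% of all genes passed and 13.2% did so unadjusted, and the median log2 difference of the members was 0.0020. These shares of all genes depend on single arrays: the 749 genes past the threshold at 12 weeks became 230 (without replicate 2 of the BALB/c mice) to 1363 (without replicate 5 of the NeuT mice) with 1 array left out. The 274 at 24 weeks became 8 (without NeuT replicate 1) to 641 (without NeuT replicate 2).

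Fcer1a (Entrez gene 14125) encodes the alpha chain, which binds IgE. Its log2 signals in the 12-week BALB/c mice were 9.45, 9.64, 9.58, 9.43 and 9.86, and in the 12-week NeuT mice 9.92, 9.999, 10.06, 10.18 and 9.83. All 5 NeuT mice lay above the BALB/c mean, and the groups overlapped only through replicate 5 of each. The means were 9.59 ± 0.17 (SD, n = 5) and 9.9999 ± 0.13, a rise of 0.41 on the log2 scale (SE 0.086, 95% confidence interval 0.23 to 0.59, adjusted p = 0.0113 by limma), or 1.33-fold. At 24 weeks the BALB/c mice gave 9.56, 9.76, 9.51 and 9.70 and the NeuT mice 9.62, 9.70, 9.64 and 9.84. These groups overlapped, with a difference of 0.068 ± 0.097 (SE, interval -0.13 to 0.27, adjusted p = 0.810).

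Ms4a2 (Entrez gene 14126) encodes the beta chain, which amplifies signals of the receptor. The 12-week BALB/c mice gave 7.16, 7.14, 7.43, 7.49 and 7.66, and the 12-week NeuT mice 7.90, 7.78, 8.20, 8.25 and 7.84. Every NeuT mouse was above every BALB/c mouse, as held upwards for 4.63% of all genes. The rise was 0.62 on the log2 scale (SE 0.12, interval 0.38 to 0.86, adjusted p = 0.00492), or 1.54-fold in signal. The BALB/c mean of 7.38 lies near the control median, so this fold is not a measure of how much the transcript itself changed. At 24 weeks the BALB/c mice gave 7.68, 7.76, 7.26 and 7.83 and the NeuT mice 7.62, 7.72, 7.60 and 7.66. The NeuT values lay inside the BALB/c range, with a difference of 0.018 ± 0.13 (SE, interval -0.25 to 0.29, adjusted p = 0.969).

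Both 12-week calls held in each of the 10 fits that left out 1 array of these groups and without the 3 arrays of lowest correlation. With the mean of the neutrophil list of each array as a covariate the 12-week differences were 0.35 ± 0.12 (SE) for Fcer1a and 0.57 ± 0.16 for Ms4a2, and neither passed (adjusted p = 0.502 and 0.423). In that fit 4 of all 19505 genes passed.

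**Figure D2:**
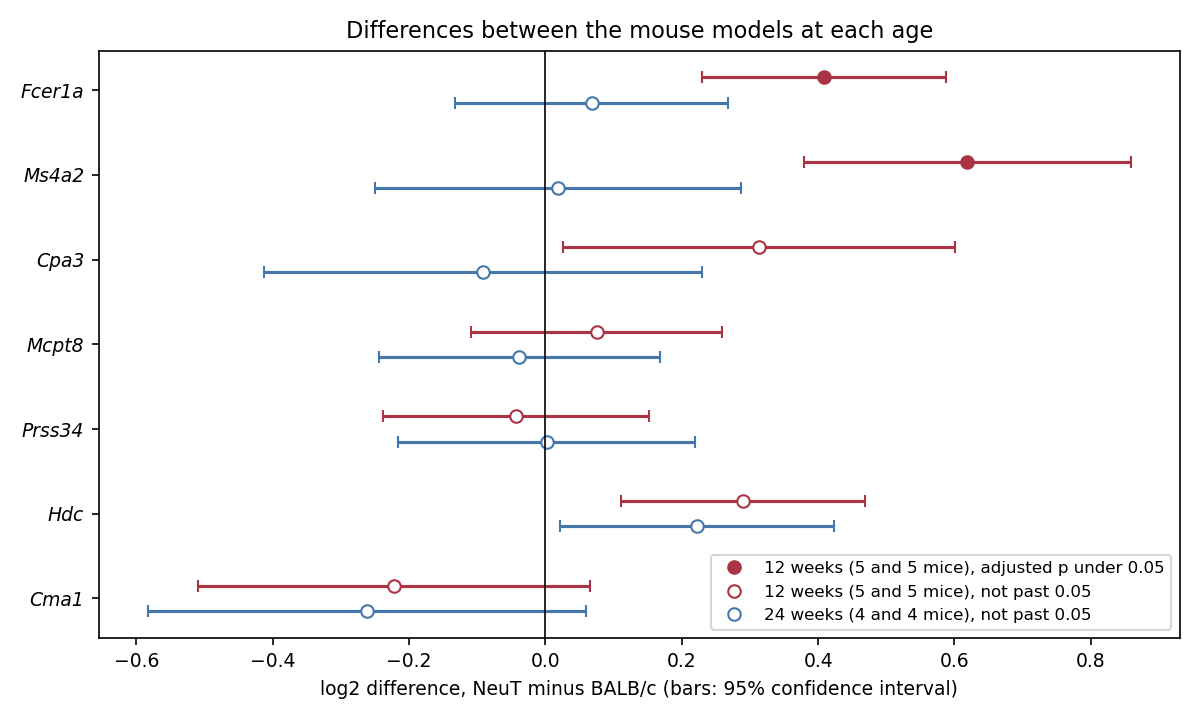
Log2 differences, NeuT minus BALB/c (horizontal axis), of each gene (vertical axis) at 12 and 24 weeks, with 95% confidence intervals as bars and filled points for an adjusted p under 0.05. Only Fcer1a and Ms4a2 at 12 weeks are filled, at 0.41 and 0.62.

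The granule protease genes did not pass in either direction at either age. Cpa3 (Entrez gene 12873) gave 10.51, 10.57, 10.56, 10.55 and 11.04 in the 12-week BALB/c mice and 10.82, 10.82, 11.06, 11.28 and 10.79 in the 12-week NeuT mice. BALB/c replicate 5 stood above its group, inside the NeuT range, and the other 4 lay under all NeuT mice. The difference was 0.31 ± 0.14 (SE, interval 0.026 to 0.60, adjusted p = 0.195). At 24 weeks Cpa3 gave 10.39, 10.89, 10.16 and 11.02 in BALB/c and 10.45, 10.58, 10.38 and 10.69 in NeuT mice, with the NeuT values inside the BALB/c range and a difference of -0.092 ± 0.15 (adjusted p = 0.843).

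Mcpt8 (Entrez gene 17231), the gene of mast cell protease 8, which marks mouse basophils, varied least of the members over all arrays, with a range of 0.48. In the 12-week mice it read 13.04, 13.15, 13.14, 13.005 and 13.17 in BALB/c and 13.04, 13.18, 13.22, 13.31 and 13.14 in NeuT. The groups overlapped, and the difference was 0.076 ± 0.089 (SE, interval -0.11 to 0.26, adjusted p = 0.658). In the 24-week mice it read 12.83, 13.31, 12.90 and 13.28 in BALB/c and 12.93, 13.16, 12.96 and 13.13 in NeuT, a difference of -0.038 ± 0.099 (interval -0.24 to 0.17, adjusted p = 0.903). The 24-week BALB/c mice split into a lower and a higher pair, and the NeuT mice lay between.

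Prss34 (Entrez gene 328780), which encodes mast cell protease 11, made mainly by basophils, read 12.91, 13.15, 12.92, 12.91 and 13.14 in the 12-week BALB/c mice. The 12-week NeuT mice gave 12.94, 13.00, 13.06, 12.90 and 12.91, for a difference of -0.043 ± 0.094 (SE, interval -0.24 to 0.15, adjusted p = 0.828). At 24 weeks it read 12.54, 13.10, 12.76 and 13.08 in BALB/c and 12.76, 12.96, 12.77 and 12.996 in NeuT mice, and the difference was 0.0020 ± 0.11 (interval -0.22 to 0.22, adjusted p = 0.996). The lowest 24-week value came from BALB/c replicate 1, the array with the lower top of the scale. Without it the 24-week differences were -0.11 for Prss34 and -0.12 for Mcpt8 (adjusted p = 0.635 and 0.586).

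Cma1 (Entrez gene 17228) read 6.19 to 7.03 in the 12-week mice and 6.51 to 7.50 in the 24-week mice. Its log2 differences of -0.22 at 12 weeks and -0.26 at 24 weeks (adjusted p = 0.367 and 0.493) compare signals at the level of the negative controls and say nothing about its expression.

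Hdc (Entrez gene 15186), which basophils, mast cells and immature myeloid cells use to make histamine, had positive values in NeuT mice at both ages, without passing at either. In the 12-week mice it gave 10.21, 10.47, 10.49, 10.08 and 10.36 in BALB/c and 10.70, 10.57, 10.69, 10.60 and 10.50 in NeuT. Every NeuT mouse lay above every BALB/c mouse, as held upwards for 4.63% of all genes. The difference was 0.29 ± 0.087 (SE, interval 0.11 to 0.47, adjusted p = 0.0597). In the 24-week mice it gave 10.22, 10.66, 10.52 and 10.55 in BALB/c and 10.75, 10.67, 10.65 and 10.77 in NeuT. All 4 NeuT mice lay above the BALB/c mean and the groups overlapped, with a difference of 0.22 ± 0.097 (interval 0.022 to 0.42, adjusted p = 0.309). Without BALB/c 24-week replicate 1, the lowest of its group, it was 0.13 (adjusted p = 0.531). The 12-week call depended on the setting: Hdc passed with dim genes left out (adjusted p = 0.0459), with median centring (0.0434), with array weights (0.0139), without replicate 3 of the 12-week BALB/c mice (0.0454) and without replicate 5 of the 12-week NeuT mice (0.0401). The 24-week effect minus the 12-week effect was -0.068 ± 0.13 (SE, interval -0.34 to 0.20, adjusted p = 0.964). Its 12-week adjusted p ran from 0.0139 to 0.677 over all alternatives.

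Averaged over both ages with equal weight, 3 of the 7 members were higher in NeuT mice, against 6.47% of all genes upwards and 8.56% in either direction. At an unadjusted p under 0.05, 4 of 7 passed and 25% of all genes. The 1670 genes behind the 8.56% became 979 without NeuT 24-week replicate 1. Hdc rose by 0.26 ± 0.065 (SE, adjusted p = 0.0153), Fcer1a by 0.24 ± 0.065 (adjusted p = 0.0236) and Ms4a2 by 0.32 ± 0.087 (adjusted p = 0.0240). For Fcer1a and Ms4a2 the mean joins 12-week differences of 0.41 and 0.62 with 24-week differences of 0.068 and 0.018. For Hdc the differences were 0.29 and 0.22. With the neutrophil covariate 0 of the 7 passed, at 0.20 for Hdc, 0.17 for Fcer1a and 0.27 for Ms4a2 (adjusted p = 0.546, 0.581 and 0.546), with 2 genes of all past the threshold. Further quantile normalisation ended the call of Hdc and cyclic loess that of Fcer1a (adjusted p = 0.0502 in each). Without the 3 arrays of lowest correlation 0 of the 7 passed, at differences of 0.26, 0.21 and 0.23 (adjusted p = 0.0525, 0.0853 and 0.118), with 873 genes past the threshold in all. Leaving out BALB/c 24-week replicate 3 ended the call of Ms4a2 (adjusted p = 0.0567) and leaving out NeuT 24-week replicate 4 that of Fcer1a (adjusted p = 0.0693).

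Receptor and protease genes were set against each other within each array. The pairings were chosen because Fcer1a and Ms4a2 passed at 12 weeks and Mcpt8 and Prss34 did not, so the values are a description that restates those differences, with no test. At 12 weeks every NeuT mouse lay above every BALB/c mouse in all 4 pairings. Such a separation held upwards for 4.63% of all genes taken singly, and its share over all pairs of genes was not computed. The log2 signal of Fcer1a minus that of Mcpt8 was -3.60, -3.52, -3.56, -3.57 and -3.31 in the BALB/c mice and -3.12, -3.18, -3.16, -3.13 and -3.31 in the NeuT mice. The groups touched at -3.311 and -3.310, and their means differed by 0.33. The mean difference was 0.45 for Fcer1a against Prss34, 0.54 for Ms4a2 against Mcpt8 and 0.66 for Ms4a2 against Prss34. The pairings share genes, and those with Ms4a2 rest on signals near the control median. At 24 weeks the same quantities were 0.11, 0.066, 0.057 and 0.016, and the groups overlapped. In bulk RNA, fewer or more cells of a type and a different amount of RNA per cell cannot be told apart.

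**Figure D3:**
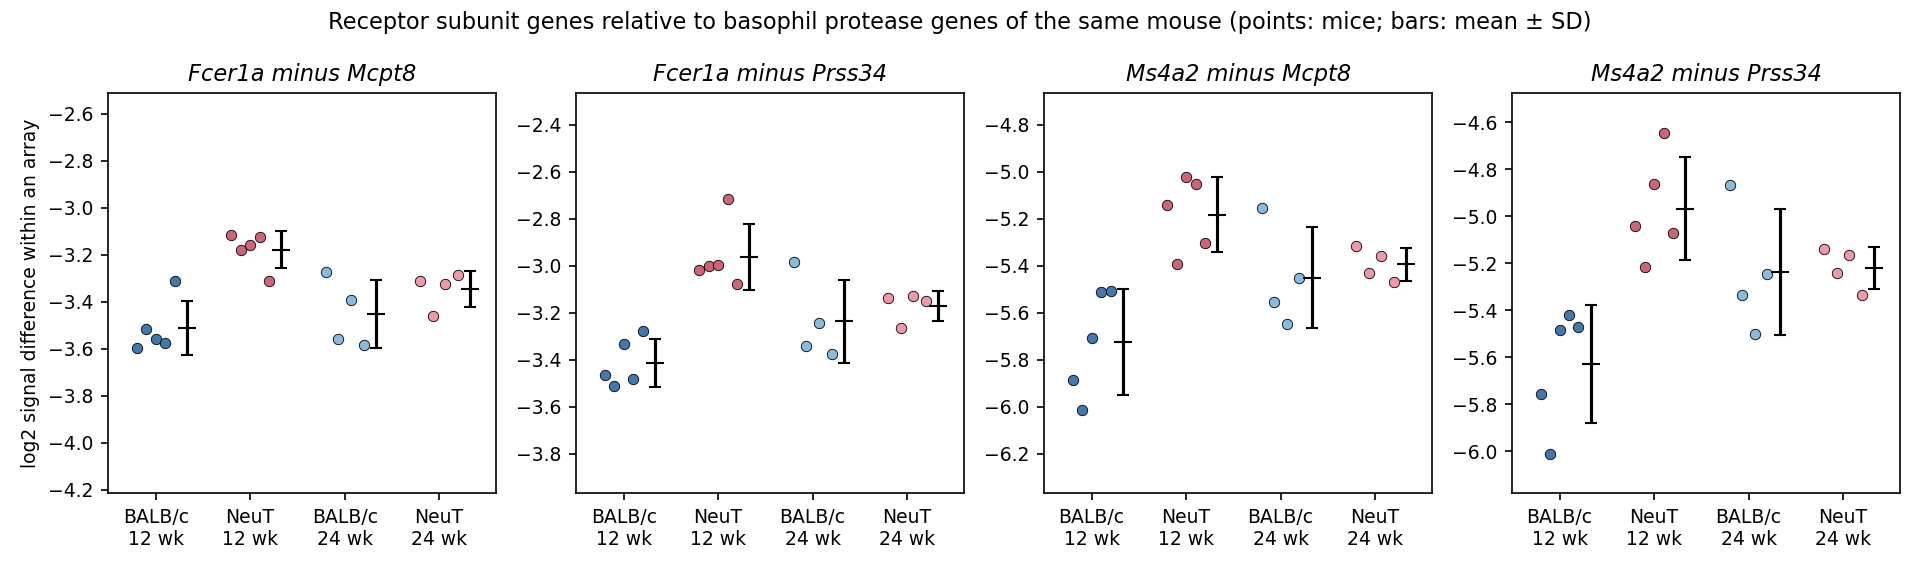
Log2 signal of Fcer1a or Ms4a2 minus that of Mcpt8 or Prss34 on the same array (vertical axes) in the 4 groups (horizontal axes), 1 point per mouse with the mean ± SD. At 12 weeks the NeuT points lie above all BALB/c points in each panel, and at 24 weeks the groups overlap. The pairings were chosen because of the 12-week results of the single genes.

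Whether the difference between the mouse models changed with age was tested directly, and 0 of 7 members passed, with 2 at an unadjusted p under 0.05, where 0.0103% of all genes passed and 6.5% did so unadjusted. The 24-week effect minus the 12-week effect was -0.60 ± 0.17 (SE) for Ms4a2 (interval -0.96 to -0.24, adjusted p = 0.598), -0.34 ± 0.13 for Fcer1a (interval -0.61 to -0.073, adjusted p = 0.724) and -0.40 ± 0.21 for Cpa3 (adjusted p = 0.787). The effects of the 2 ages were therefore not shown to differ over all genes tested. Between the ages 0 of 7 members passed within BALB/c mice (1 at an unadjusted p under 0.05, 0.579% of all genes passing and 15.3% unadjusted; the 113 genes behind that share became 0 without 24-week replicate 1 and 589 without 24-week replicate 3) and 0 within NeuT mice (3 at an unadjusted p under 0.05, 0.0359% of all genes passing and 12.6% unadjusted; the 7 genes behind that share became 177 without 24-week replicate 2). In NeuT mice the 24-week values minus the 12-week values were -0.43 ± 0.15 (SE) for Cpa3, -0.34 ± 0.12 for Ms4a2 and -0.30 ± 0.092 for Fcer1a (adjusted p = 0.211, 0.230 and 0.167). All 4 of the 24-week NeuT mice lay under all 5 of the 12-week NeuT mice in Ms4a2 and Cpa3, as held downwards for 2.12% of all genes. In BALB/c mice the Ms4a2 value was 0.26 ± 0.12 the other way (adjusted p = 0.324). Age and any batch that separates the mice by age cannot be told apart.

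Mice of one group differed among themselves in the same direction for several members. Over the deviations of the 18 arrays from their group means, 7 of the 21 pairs of members passed, and each of these correlations was positive (permutation within groups, Benjamini-Hochberg over 21 pairs). The highest Pearson's r, 0.849, was that of Mcpt8 and Prss34 (permutation p = 0.00353, adjusted 0.0148), with a Spearman's rho of 0.820 (permutation p = 0.00502), and Cpa3 and Mcpt8 had the highest rho, 0.862. Without BALB/c 24-week replicates 1 and 3, the arrays farthest from the median of Mcpt8, r was 0.626. Fcer1a and Cpa3 gave r of 0.840 (permutation p = 2e-05, adjusted 0.00042) and rho of 0.833 (permutation p = 0.00014), and r was 0.800 without NeuT 12-week replicates 3 and 4. The 2 arrays left out of a pair lay farthest from the median of 1 of its genes over all arrays, not from the group means. BALB/c 12-week replicate 5, with deviations of 0.27 in Fcer1a and 0.39 in Cpa3, therefore stayed in. Cpa3 correlated with Mcpt8 (r = 0.834, rho = 0.862, permutation p = 0.0022 and 0.00082, adjusted 0.0115 and 0.00574, r = 0.790 without 2 arrays) and with Ms4a2 (r = 0.815, rho = 0.742, permutation p = 0.0001 and 0.00111, adjusted 0.00105 and 0.00583, r = 0.777 without 2 arrays). Fcer1a further correlated with Mcpt8 (r = 0.713, adjusted permutation p = 0.00266) and with Prss34 (r = 0.630, adjusted permutation p = 0.0202). Fcer1a and Ms4a2 passed by Pearson's r (0.636, adjusted permutation p = 0.0448) but not by Spearman's rho (0.606, adjusted permutation p = 0.057), and r was 0.525 without NeuT 12-week replicates 3 and 4. Cpa3 with Prss34 (r = 0.688) and Ms4a2 with Mcpt8 (r = 0.518) did not pass by Pearson's r (adjusted permutation p = 0.0703 and 0.0771). Both passed by Spearman's rho (adjusted permutation p = 0.0255 and 0.0498). Ms4a2 with Prss34 passed by neither (r = 0.289, adjusted permutation p = 0.5). Hdc passed with none of the other members, its largest r being 0.644 with Prss34 (adjusted permutation p = 0.0619). Cma1 gave r of -0.65 to 0.137 and passed with none. For some of these pairs many other genes had a higher r with the same member. Of 19504 genes ranked by r with Fcer1a, Cpa3 was at rank 2, Mcpt8 at 38, Ms4a2 at 181 and Prss34 at 201. With Ms4a2, Cpa3 ranked 17 and Fcer1a 683, and with Mcpt8, Prss34 ranked 6, Cpa3 12 and Fcer1a 185. The share of all gene pairs that would pass was not computed. Depth of labelling and quality of an array are shared by all genes on it, and their part in these correlations was not tested.

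**Figure D4:**
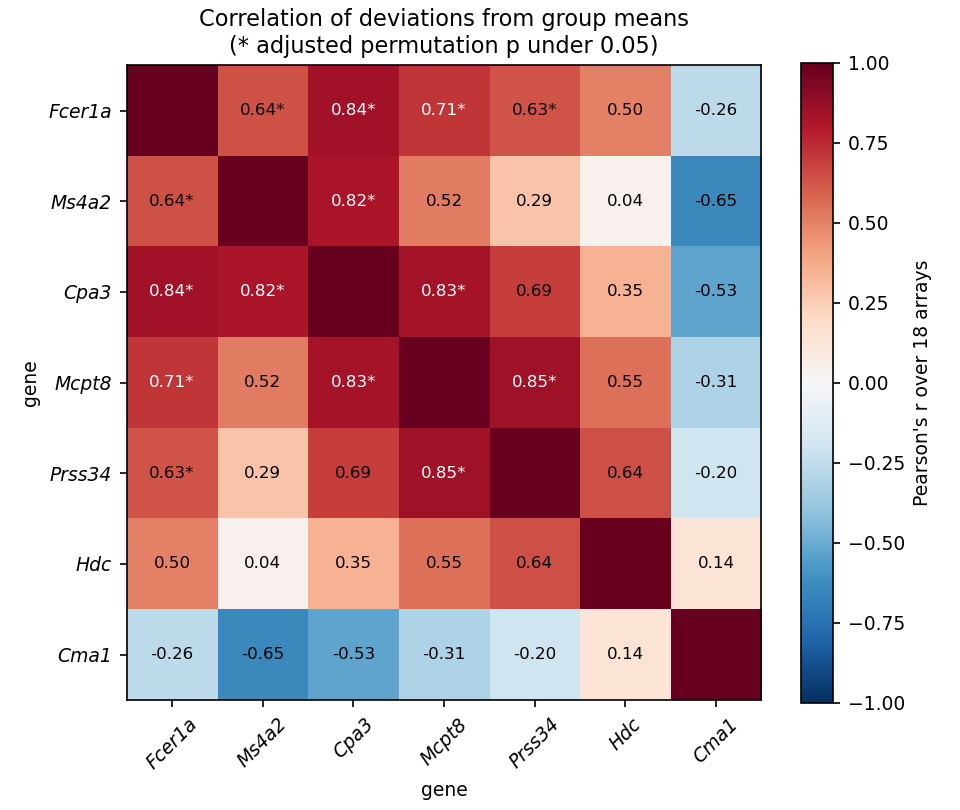
Pearson's r between each pair of genes (both axes) over the deviations of 18 arrays from their group means, with an asterisk for an adjusted permutation p under 0.05. Asterisks fall only among Fcer1a, Ms4a2, Cpa3, Mcpt8 and Prss34, up to 0.849 for Mcpt8 and Prss34. Among these genes Ms4a2 with Mcpt8 (0.518), Ms4a2 with Prss34 (0.289) and Cpa3 with Prss34 (0.688) have no asterisk. Hdc and Cma1 have none.

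Ranking all genes by likeness on the same deviations placed Cd200r3 among the 3 genes closest to each of the basophil proteases Mcpt8 and Prss34. For Mcpt8 the gene most alike of 19504 was Cd200r3 (r = 0.934, rho = 0.932), an activating receptor gene of basophils and mast cells, followed by the histone gene H2bc4 (r = 0.899) and Mx1 (r = 0.884). For Prss34 it was Cdh1, the E-cadherin gene (r = 0.905, rho = 0.853), followed by Cd200r3 (r = 0.900) and Cyp11a1 (r = 0.886), a steroid-synthesis enzyme gene. Cd200r3 and Cyp11a1 also stand in the list of further basophil genes. For Fcer1a the closest genes were Bcl2a1c (r = 0.851), Cpa3 (r = 0.840) and Sugct (r = 0.828), for Ms4a2 Ube2a (r = 0.901), Mak16 (r = 0.875) and Zfp983 (r = 0.870), and for Cpa3 Acp6 (r = 0.913), Xpa (r = 0.897) and Tatdn3 (r = 0.896). For Hdc they were Hand1 (r = 0.841), Trim43c (r = 0.826) and Tex13b (r = 0.816), and for Cma1 Susd5 (r = 0.935), Glt28d2 (r = 0.934) and Xirp1 (r = 0.921). These are descriptions over 18 arrays, and the top of a ranking of so many genes is high by selection.

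The genes that act with the members were described next. The counts of this and the following lists stand beside 3.84% of all genes past the threshold at 12 weeks, 3.15% upwards. At 24 weeks that share was 1.4% in either direction. Whether a list differs from these shares was not tested. Of 20 measured genes of IgE receptor signalling 2 rose at 12 weeks and 0 fell, with a list median of -0.024 against -0.025 for all genes. Fcer1g encodes the signalling gamma chain that the IgE receptor shares with IgG receptors of myeloid cells. It rose by 0.41 ± 0.079 (SE, adjusted p = 0.00577) at 12 weeks, where the signals of Fcer1a and Ms4a2 were higher too. The receptor protein was not measured. At 24 weeks Fcer1g had a value of 0.34 ± 0.089 (adjusted p = 0.0547), against 0.068 for Fcer1a and 0.018 for Ms4a2. Vav1, an exchange factor gene of haematopoietic cells, rose by 0.38 ± 0.083 at 12 weeks (adjusted p = 0.0142). Of this list 0 passed at 24 weeks.

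Of 20 further mast cell genes 0 passed at either age, with medians of -0.060 and 0.015. The smallest p-values belonged to Tph1, a serotonin-synthesis enzyme gene read under the negative control median in every array, and to Ctsg, the cathepsin G gene shared with neutrophil precursors, with values of 0.27 at 12 and 0.34 at 24 weeks (adjusted p = 0.0686 and 0.0710). Of 16 further basophil genes 2 rose at 12 weeks and 0 at 24 weeks, with medians of 0.12 and 0.024. They were Ccr2 (1.25 ± 0.13 SE, adjusted p = 9.02e-06), a chemokine receptor gene that inflammatory monocytes carry as well, and Hgf (0.63 ± 0.17, adjusted p = 0.0368), the hepatocyte growth factor gene. Cd200r3 had values of 0.32 and -0.14 at 12 and 24 weeks (adjusted p = 0.156 and 0.708), and Cyp11a1 -0.13 and -0.21 (adjusted p = 0.588 and 0.569).

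Among 17 transcription factor genes of the lineages 1 rose at 12 weeks and 0 at 24 weeks. It was Nfil3 (0.41 ± 0.089 SE, adjusted p = 0.0125), a regulator of many blood lineages. Gata1 and Gata2, named because of the promoter letters, had values of -0.12 and 0.16 at 12 weeks (adjusted p = 0.348 and 0.553). Of 15 genes for cytokines and receptors that act on the cells 1 rose at each age, Tslp, whose product acts on basophils, by 0.34 ± 0.094 at 12 weeks (adjusted p = 0.0419) and by 0.87 ± 0.11 at 24 weeks (adjusted p = 0.000293). In the histamine list 0 of 7 passed at 12 weeks, and at 24 weeks Hnmt, the gene of the enzyme that methylates and inactivates histamine, rose by 0.63 ± 0.15 (adjusted p = 0.0427), with a value of 0.45 at 12 weeks (adjusted p = 0.0644).

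Markers of other blood cells moved with the comparison, and their part in the differences of the members was not tested beyond the covariate fits. Of 12 neutrophil genes 6 rose at each age, with list medians of 0.82 and 1.01. The mean log2 signal of that list was 9.81 to 10.57 in the 12-week BALB/c mice, 10.04 to 11.66 in the 12-week NeuT mice, 9.83 to 10.37 in the 24-week BALB/c mice and 10.39 to 11.44 in the 24-week NeuT mice. Among those past the threshold, Chil3 (1.96) and Mmp8 (1.81) had the largest values at 12 weeks, and Ltf (1.82) and Mmp9 (1.07) at 24 weeks (adjusted p = 0.00980, 0.00976, 0.0427 and 0.0430). Of 10 genes of granulocyte-monocyte progenitors 4 rose at 12 and 2 at 24 weeks, led by Igsf6 (0.40 and 0.48, adjusted p = 0.0226 and 0.0296), and of 10 monocyte and macrophage genes 5 rose and 1 fell at 12 weeks and 0 passed at 24 weeks. The eosinophil genes, the nearest granulocyte relatives, did not pass at either age (0 of 8, medians 0.17 and -0.090). Siglecf and Il5ra, their smallest p-values, had values of 0.35 and -0.54 at 24 weeks (adjusted p = 0.187 and 0.263). None of 10 B-cell genes passed at 12 weeks and 1 fell at 24 weeks, Blk (-0.997, adjusted p = 0.0282), with medians of -0.55 and -0.84. The T and NK cell list had 0 of 11 past the threshold at 12 weeks and 3 lower at 24 weeks, led by Gzma (-1.33, adjusted p = 0.00264). Of the 7 erythroid and 6 megakaryocyte genes 0 passed at either age, and of 14 stromal genes 0 passed at 12 weeks and 2 rose at 24 weeks, Igfbp5 (0.69) and Vcam1 (0.47, adjusted p = 0.0492 and 0.0233).

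**Figure D5:**
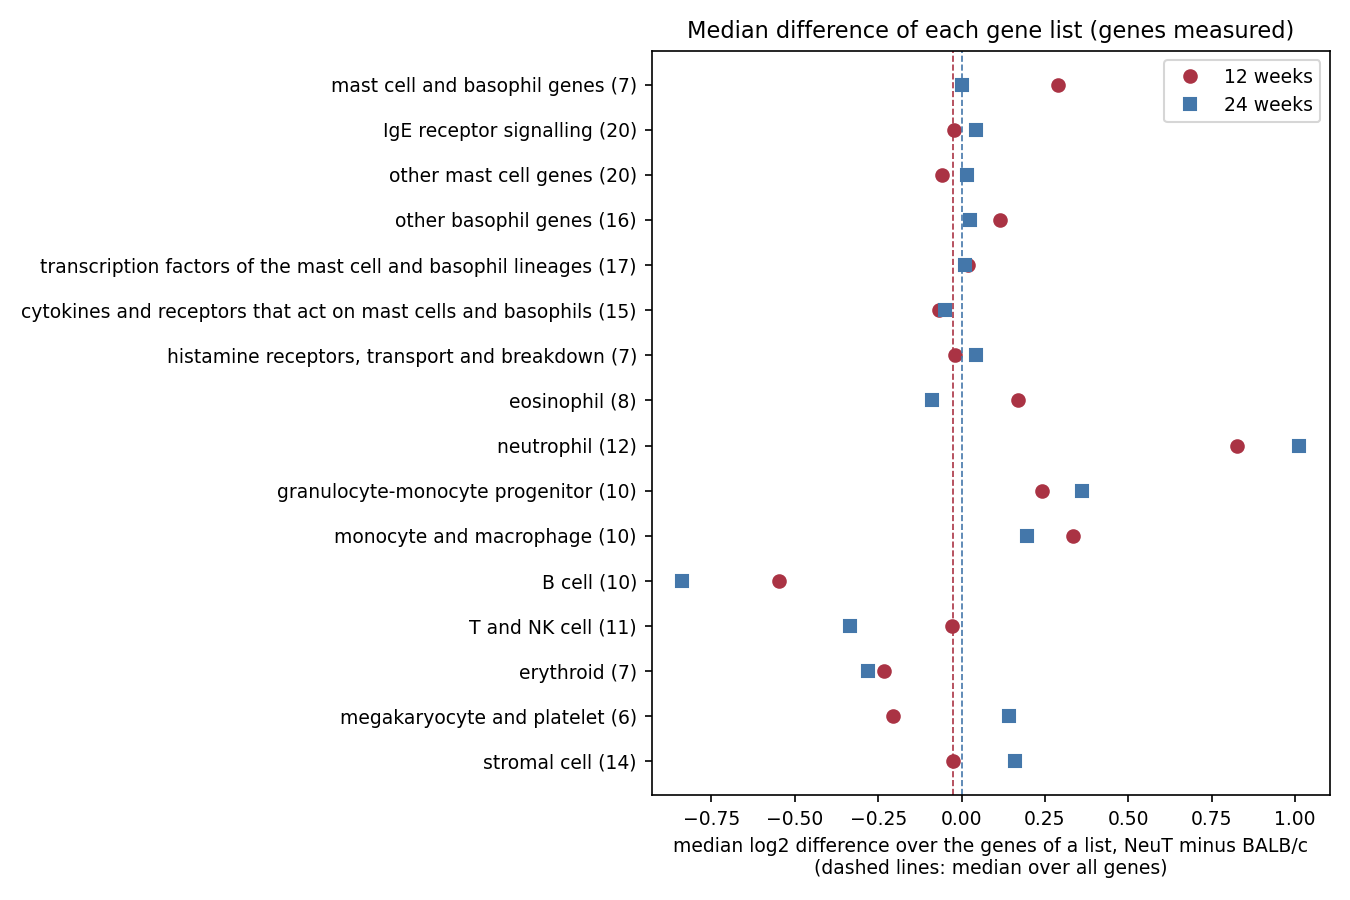
Median log2 difference, NeuT minus BALB/c (horizontal axis), over the measured genes of each list (vertical axis, with their number) at 12 and 24 weeks, and dashed lines for the median of all genes. The 7 members lie at 0.29 and 0.0020, the neutrophil list at 0.82 and 1.01 and the further mast cell genes at -0.060 and 0.015.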

How the data were processed

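Each of 18 mice gave 1 array, and a replicate is a mouse. The authors deposited 1 log2 signal per probe set and array. Per the submitters' processing notes these came from RMA, a method that normalises by quantiles, and from the Transcriptome Analysis Console, whose versions, like the build, are not stated there (not given in the sources used here).

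Of 29129 probe sets 19572 had 1 gene symbol in the platform annotation, and 2615 transcript clusters not named here, 5222 negative controls and 1720 other controls were left out. Where a gene had more than 1 probe set (55 genes) the one with the highest mean was kept, which left 19505 genes. All genes were fitted with limma 3.58.1, with group as the factor, in R 4.3.3 (14 residual and 8.68 prior degrees of freedom). P-values were two-sided and corrected by the Benjamini-Hochberg method across the whole table, and 0.05 was the threshold. Contrasts were NeuT minus BALB/c at each age, their mean and difference, and 24 minus 12 weeks in each model. Correlations used 100000 permutations within groups.

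The members and lists were chosen with earlier results of these data known. All members are named, and from each other list at most 4 called genes per age, those of greatest change; in a list without calls, 2 genes of lowest p are given as values; by likeness the 3 genes with the highest r per member. Genes outside this rule were Mcpt1, Mcpt2, Mcpt4, Mcpt9, Cma2, Tpsab1, Mrgprb1, Mrgprb2, Cd200r4, Il3ra, Csf2rb, Cd69, Lepr, Col3a1, Gata1, Gata2, Kit, Srgn, Cd63, Cxcl12, Col1a1, Eng, Mpo, Elane and the list values of Cd200r3 and Cyp11a1, chosen after their values were seen. Of the list genes other than members 19 were not matched by symbol and not analysed here. The fit was tested on simulated data. Alternatives were 3 other normalisations, a filter on dim genes, other uses of multiple probe sets, array weights, trended and robust variances, fits on 2 groups, neutrophil and B-cell covariates, and leaving out each array; the fit without the 3 least correlated arrays and the within-array comparison were added after seeing the data. Figures were drawn with matplotlib 3.10.9.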

Additional observations from a re-analysis of the deposited data

Results flagged for a closer look

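In the groups of 4 or 5 mice, 5 values stood apart from the rest of their group by Dixon's criterion at 95%, among 28 groups of member signals and 16 groups of within-array differences; chance flags about 1 in 20 groups. Cpa3 read 11.04 in BALB/c 12-week replicate 5, above the other 4 mice of that group. Cma1 read 7.50 in BALB/c 24-week replicate 3, the array with the lowest median of its negative controls (7.13) and the 1 array where Cma1 exceeded that median. The log2 signal of Fcer1a minus that of Mcpt8 was -3.31 in BALB/c 12-week replicate 5, the highest of its group. Fcer1a minus Prss34 was -2.72 in NeuT 12-week replicate 4, the highest of its group, and -3.27 in NeuT 24-week replicate 2, the lowest of its group.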

How the results depend on the processing

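Of the 7 members, the number past the threshold at 12 weeks was 2 to 3 when 1 array at a time was left out. It was 0 with the neutrophil covariate and 0 with the neutrophil and B-cell covariates, where Fcer1a had values of 0.35 and 0.35 and Ms4a2 0.57 and 0.598, with 4 genes of all past the threshold in each. For the mean of both ages it was 2 to 3 with 1 array left out, 2 after further quantile normalisation (Hdc lost) and after cyclic loess (Fcer1a lost), 0 under both covariate fits and 0 without the 3 arrays of lowest correlation. Between the ages in BALB/c mice it was 2 with array weights (Ms4a2 and Hdc) and 1 without those 3 arrays (Ms4a2). At 24 weeks, for the difference between ages and between the ages in NeuT mice it was 0 in every fit run. Of all genes, array weights moved the number past the threshold from 749 to 2088 at 12 weeks, from 274 to 577 at 24 weeks and from 113 to 2375 between the ages in BALB/c. At 24 weeks it was 1 in the fit on the 2 groups and 2 under each covariate fit, and between the ages in BALB/c it was 0 without BALB/c 24-week replicate 1. The pairs of members past the threshold numbered 6 to 9 with 1 array left out and 5 after further quantile normalisation, against 7.

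The sign turned for values that passed in no fit, and the cause was not tested. After further quantile normalisation these were Prss34 at 24 weeks (-0.092), Mcpt8 over both ages (-0.056), Prss34 in the difference between ages (-0.014) and Mcpt8 between the ages in BALB/c (0.053). With cyclic loess the same 4 values were -0.092, -0.049, -0.0091 and 0.042, and with median centring Prss34 at 24 weeks was -0.0018. With array weights, values at 24 weeks were -0.016 for Fcer1a, -0.11 for Ms4a2 and -0.16 for Prss34. Over both ages they were -0.039 for Cpa3 and -0.064 for Mcpt8, in the difference between ages -0.16 for Prss34 and 0.14 for Cma1, and between the ages in BALB/c 0.20 for Cpa3, 0.15 for Mcpt8, 0.036 for Prss34 and -0.11 for Cma1. With the neutrophil covariate Prss34 was 0.030 at 12 weeks and 0.055 over both ages, and Ms4a2 was -0.031 at 24 weeks. With both covariates Prss34 was 0.032 and 0.057, and Mcpt8 was 0.046 at 24 weeks. Without the 3 arrays Ms4a2 was -0.10 at 24 weeks, Mcpt8 -0.0085 over both ages, Cma1 0.18 in the difference between ages, and Cpa3 0.12, Mcpt8 0.041 and Cma1 -0.16 between the ages in BALB/c.

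With 1 array left out at a time, the 24-week values ran from -0.11 to 0.085 for Ms4a2, -0.24 to 0.042 for Cpa3, -0.12 to 0.039 for Mcpt8 and -0.11 to 0.079 for Prss34. Over both ages they ran from -0.023 to 0.057 for Mcpt8 and -0.074 to 0.018 for Prss34, and in the difference between ages from -0.063 to 0.12 for Prss34 and -0.14 to 0.17 for Cma1. Between the ages in BALB/c they ran from -0.0013 to 0.11 for Fcer1a, -0.16 to 0.12 for Cpa3, -0.096 to 0.065 for Mcpt8 and -0.16 to 0.14 for Cma1, and in NeuT from -0.0997 to 0.067 for Cma1. Within arrays at 24 weeks Ms4a2 minus Mcpt8 ran from -0.0086 to 0.16 and Ms4a2 minus Prss34 from -0.071 to 0.14. No paired analysis was possible because the labels give each mouse an ID of its own and no shared number. The fit on the 2 groups compared gives no value for the mean or difference of ages, and Cma1 was removed by the filter on dim genes. Signals near the negative controls limit Ms4a2 and Cma1.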
